A study of Mus musculus with 8 samples.

Results

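The genes described here are the 7 members of a pair of cell adhesion families, among 38031 genes with counts in the table. The IgLON family holds *Negr1*, *Lsamp*, *Ntm*, *Opcml* and *Iglon5*, and the NCAM family holds *Ncam1* and *Ncam2*. They were chosen by family name and because *Negr1* was already known to rise in these libraries, so the contrast between treatments helped to choose them. Their differences between treatments, and the number of them past a threshold, are therefore given as a description, and no p is given for them. Every gene was represented by its counted transcript with the lowest Ensembl number, and all 7 members passed the filter on low counts.

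RNA was sequenced from the primary motor cortex (M1) of male Swiss Webster mice, injected at P21 to P25 and taken at P49 to P53. Both treatments used a lentivirus in which the synapsin I promoter drove an mCherry reporter and a short hairpin RNA (shRNA). Expression of both was thus directed to neurons. The hairpin was *Fezf2 shRNA* in 4 libraries and non-silencing shRNA in the 4 control libraries. The tissue was cut out by its mCherry signal and held all cortical layers and the meninges, and it therefore mixed transduced neurons with other cells. In such bulk RNA, fewer cells of a type and less RNA per cell cannot be told apart. The study asked whether a lower level of *Fezf2*, a transcription factor of layer 5 projection neurons, alters the RNA profile of mature cortex.

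IgLON proteins are small immunoglobulin-domain proteins that a lipid anchor holds to the surface of neurons, where they bind themselves and each other within and between cells. They are known for roles in neurite outgrowth, axon guidance and synapse formation. NCAM proteins also carry fibronectin type III domains, exist in membrane-spanning and lipid-anchored forms, and in the case of *Ncam1* carry polysialic acid, a sugar chain that loosens adhesion between cells.

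The hairpin is shown first so that its match to *Fezf2* and to the members can be read. Capitals mark the 19 nt found in the annotated transcripts of *Fezf2*.
Fezf2 shRNA, sense strand: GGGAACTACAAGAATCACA
The longest run that this sequence shared in the sense direction with an annotated transcript was 10 nt for *Lsamp* and *Ntm*, 9 nt for *Negr1*, *Opcml* and *Ncam2*, 8 nt for *Ncam1* and 7 nt for *Iglon5*. Matches interrupted by mismatches were not searched, and neither the place of each run in the hairpin nor the runs of other genes were examined. Whether the hairpin acted on the members directly was not tested.

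The promoters of 4 members are shown because a RefSeq start lay within 165 bases of the start of the counted transcript. The window thus lies at the start of the interval whose reads are given. Each window has 300 bases on GRCm38.p6, from 250 before to 50 after the RefSeq start, printed 5′ to 3′ on the strand of the gene. Capitals mark the GC box, searched as GGGCGG on both strands (CCGCCC on the other strand), which 35.7% of 32851 mouse promoter windows held.
Negr1, chr3:156561544-156561843, plus strand: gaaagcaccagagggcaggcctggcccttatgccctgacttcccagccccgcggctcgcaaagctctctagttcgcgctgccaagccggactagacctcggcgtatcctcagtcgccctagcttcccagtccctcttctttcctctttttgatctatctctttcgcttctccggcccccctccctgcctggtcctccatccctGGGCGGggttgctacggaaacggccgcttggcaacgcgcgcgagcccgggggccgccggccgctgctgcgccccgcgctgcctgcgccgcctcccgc
Lsamp, chr16:41532576-41532875, plus strand: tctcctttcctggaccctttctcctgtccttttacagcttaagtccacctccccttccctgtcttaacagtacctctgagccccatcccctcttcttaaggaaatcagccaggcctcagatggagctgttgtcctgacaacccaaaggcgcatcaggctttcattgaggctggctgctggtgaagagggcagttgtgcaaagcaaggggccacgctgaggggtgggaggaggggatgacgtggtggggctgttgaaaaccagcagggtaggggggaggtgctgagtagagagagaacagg
Ncam2, chr16:81200447-81200746, plus strand: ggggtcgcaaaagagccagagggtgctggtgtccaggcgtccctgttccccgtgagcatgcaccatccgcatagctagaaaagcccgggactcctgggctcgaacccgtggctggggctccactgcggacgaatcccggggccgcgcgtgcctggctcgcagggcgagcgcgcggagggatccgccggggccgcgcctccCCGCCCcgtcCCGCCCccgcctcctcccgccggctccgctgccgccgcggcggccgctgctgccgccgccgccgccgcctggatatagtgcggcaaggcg
Iglon5, chr7:43490162-43490461, minus strand: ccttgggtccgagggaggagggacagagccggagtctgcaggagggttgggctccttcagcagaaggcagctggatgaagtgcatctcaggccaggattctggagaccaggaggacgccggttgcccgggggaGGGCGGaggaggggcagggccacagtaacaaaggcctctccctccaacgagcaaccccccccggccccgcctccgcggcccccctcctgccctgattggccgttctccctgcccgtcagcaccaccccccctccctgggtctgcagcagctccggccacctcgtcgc
The GC box occurred 2 times at *Ncam2*, 1 time each at *Negr1* and *Iglon5*, and not in the *Lsamp* window. The *Ncam2* window had 41 CpG dinucleotides and a GC content of 75.7%, the *Negr1* window had 29 and 68.0%, and the *Iglon5* window had 16 and 69.7%. The *Lsamp* window stood apart with 3 CpG and 56.3% GC, against medians of 7 CpG and 52.7% over all windows. The TATA box, searched as TATAAA on both strands (TTTATA on the other strand), was in none of the 4 windows and in 13.6% of all windows. The GC-rich windows thus belonged both to *Negr1*, which differed most between treatments, and to *Iglon5*, which differed least.

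Per library, 54684016 to 58003814 counts fell on genes, and 9959 genes passed the filter of more than 8 CPM (counts scaled to the library total) in at least 4 libraries. Counts are given below as normalized counts, which are counts scaled to a common library size with the trimmed mean of M values (TMM). With an adjusted p of at most 0.05 (edgeR) and a log2 fold change of at least 0.2 in either direction, 208 genes passed (2.09% of those tested), of which 195 (1.96%) were higher and 13 (0.131%) lower with *Fezf2 shRNA*. The targeted gene *Fezf2* had 723 ± 35.4 normalized counts in control and 591 ± 22.1 in *Fezf2 shRNA* libraries (SD, n = 4 each). All 4 *Fezf2 shRNA* libraries lay below all controls, as in 4.41% of the genes tested (two-sided exact permutation test, p = 0.0286, the smallest this design allows), with a log2 fold change of -0.29 (SE 0.0781) and an adjusted p of 0.0824 from edgeR.

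Of the 7 members, 4 were past this threshold as increased, beside the 1.96% of all genes tested, and the contrast had helped to choose them. These were *Negr1*, *Lsamp*, *Ntm* and *Opcml*. In the same 4 genes all *Fezf2 shRNA* libraries lay above all control libraries, as they did in 7.41% of all genes tested. The members had a median log2 fold change of 0.45, against -0.03 over the 9959 genes.

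*Negr1* (neuronal growth regulator 1, or Kilon) is an IgLON of neuronal surfaces and synapses. Its counted transcript has 7 exons over 610 kb of chromosome 3 (156561959 to 157171829, plus strand, GRCm38). Control libraries 1 to 4 had 14082, 13957, 13221 and 13183 normalized counts of *Negr1*. *Fezf2 shRNA* libraries 1 to 4 had 21027, 16957, 24104 and 21955. The controls lay close together, with a coefficient of variation of 3.49%, while the *Fezf2 shRNA* libraries varied by 14.2%, and the lowest of them, replicate 2, was still above every control. The means were 13611 ± 475 in control and 21011 ± 2994 in *Fezf2 shRNA* libraries (SD, n = 4 each), which is a difference of 54.4% and a log2 fold change of 0.63 (SE 0.0987). Only 0.432% of the genes tested had a larger log2 fold change.

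*Lsamp* (limbic system associated membrane protein) guides axons of limbic circuits. The counted transcript spans 613 kb of chromosome 16 (41532858 to 42146213, plus strand) with 6 exons, and is a shorter form of a gene annotated over 2197 kb. The forms that start farther upstream were not analysed here. Controls had 11328, 12275, 12632 and 10164 normalized counts of *Lsamp*, and *Fezf2 shRNA* libraries had 18765, 14757, 16702 and 15148. The lowest library with *Fezf2 shRNA* was above the highest control. The means were 11600 ± 1104 and 16343 ± 1820 (SD, n = 4 each), with a log2 fold change of 0.49 (SE 0.0954).

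*Ntm* (neurotrimin) and *Opcml* (opioid binding protein/cell adhesion molecule like) are neighbours on chromosome 9 with their 3′ ends facing each other, 73.7 kb apart between the counted transcripts. Both encode IgLONs of neuronal membranes. *Ntm* lies on the minus strand (28994750 to 29963129, 968 kb, 8 exons) and *Opcml* on the plus strand (28403797 to 28921078, 517 kb, 7 exons).

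Among the transcripts with the lowest Ensembl number, that of *Ntm* had the highest counts of the family. They were 35794, 40182, 39790 and 29504 in controls and 55705, 49965, 49844 and 52406 in *Fezf2 shRNA* libraries. Control replicate 4 was the lowest library of all 8, and the treatments did not overlap. The means were 36317 ± 4956 and 51980 ± 2750 (SD, n = 4 each), with a log2 fold change of 0.52 (SE 0.1). *Opcml* had 20849, 24289, 23094 and 18463 normalized counts in controls and 32368, 26843, 29708 and 29428 in *Fezf2 shRNA* libraries. Here too control replicate 4 was lowest and the treatments were apart. The means were 21674 ± 2572 and 29587 ± 2258 (SD, n = 4 each), with a log2 fold change of 0.45 (SE 0.0957). This *Opcml* transcript is a shorter form of a gene annotated over 1135 kb. The widest *Opcml* transcript had a control mean of 61140 normalized counts, above the 36317 of *Ntm*.

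*Iglon5*, the IgLON whose protein is the target of autoantibodies in anti-IgLON5 disease, is by far the shortest member, with 8 exons over 17.2 kb of chromosome 7 (43472904 to 43490075, minus strand). Controls had 598, 704, 635 and 886 normalized counts of *Iglon5*, and *Fezf2 shRNA* libraries had 676, 609, 597 and 863. The treatments overlapped across their whole range, with replicate 4 highest in both. The means were 706 ± 128 and 686 ± 123 (SD, n = 4 each) and the log2 fold change was -0.04 (SE 0.15). Its sign rested on single libraries, being 0.09 without control replicate 4 and turning to -0.17 when replicate 4 of *Fezf2 shRNA* was left out instead.

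*Ncam1*, the main neural cell adhesion molecule and carrier of polysialic acid, spans 282 kb of chromosome 9 (49517278 to 49798890, minus strand, 16 exons). Controls had 8967, 10881, 9164 and 8574 normalized counts of *Ncam1*, and *Fezf2 shRNA* libraries had 10828, 11116, 11384 and 10876. The groups overlapped only through control replicate 2, and 2 of the *Fezf2 shRNA* libraries lay just below it. The means were 9396 ± 1020 and 11051 ± 255 (SD, n = 4 each), with a log2 fold change of 0.23 (SE 0.0768), or 0.31 without control replicate 2.

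*Ncam2*, known for its part in olfactory axon targeting, spans 397 kb of chromosome 16 (81200697 to 81597805, plus strand, 16 exons). Controls had 11699, 12267, 10982 and 11107 normalized counts of *Ncam2*, and *Fezf2 shRNA* libraries had 13857, 11670, 14597 and 15917. *Fezf2 shRNA* replicate 2 lay among the controls and the other 3 above them. The means were 11514 ± 592 and 14010 ± 1778 (SD, n = 4 each), with a log2 fold change of 0.28 (SE 0.0916), or 0.36 without that library.

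**Figure D1:**
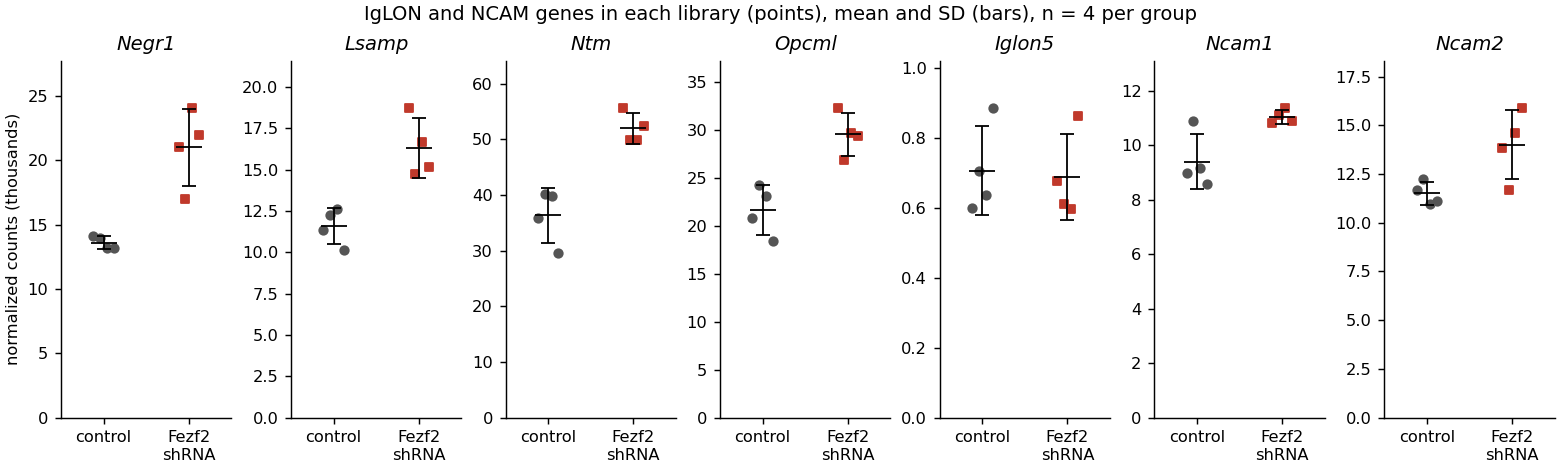
Normalized counts (in units of 1000, each axis from 0) of the 7 genes in the 4 control (circles) and 4 Fezf2 shRNA libraries (squares), with mean and SD as bars. The treatments are apart for Negr1, Lsamp, Ntm and Opcml and overlap for Iglon5, Ncam1 and Ncam2.

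Levels can be compared between genes only per length, and here per kb of genomic interval, because the deposited counts cover introns. In the controls the order was *Opcml* (41.9 ± 4.97 normalized counts per kb), *Iglon5* (41.1 ± 7.45), *Ntm* (37.5 ± 5.12), *Ncam1* (33.4 ± 3.62), *Ncam2* (29.0 ± 1.49), *Negr1* (22.3 ± 0.779) and *Lsamp* (18.9 ± 1.80; SD, n = 4). The *Iglon5* interval is 15.3% exonic, against 0.544% (*Lsamp*) to 1.89% (*Ncam2*) in the other members, so its place cannot be compared with theirs. At a like exonic share, the 3′ ends of *Ntm* (12.7%), *Ncam1* (13.4%) and *Ncam2* (13.1%) had 252, 224 and 60.9 normalized counts per kb in controls. Neighbours in this order overlapped between libraries from *Opcml* down to *Ncam2*. *Negr1* lay below *Ncam2*, and *Lsamp* below *Negr1*, in every control library. *Ncam1* shares a stretch with an antisense gene (described below). Outside it, and only if strand was not used in counting, the level of *Ncam1* was 26.2 ± 3.84 per kb. That would place it after *Ncam2*.

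The members differed in how closely their patterns over the 8 libraries matched. Likeness was measured as the root mean square difference of log2 normalized counts after each gene was centred on its own mean, so that a small value means a like pattern. *Lsamp* and *Opcml* differed by 0.06, *Ntm* and *Opcml* by 0.06, and *Lsamp* and *Ntm* by 0.09. *Negr1* was 0.16 from *Lsamp*, 0.17 from *Opcml*, 0.18 from *Ntm* and *Ncam2*, and 0.24 from *Ncam1*. *Iglon5* was the least like the others, at 0.26 to 0.41. The 5 genes outside the family with patterns most like that of *Negr1* were *Erc2* (0.0899), *Cntnap5a* (0.107), *Xirp2* (0.111), *Tmtc2* (0.112) and *Myo16* (0.115), against a median of 0.369 over all genes tested. Those most like *Iglon5* were *Fah* (0.0788), *Scamp2* (0.0852), *Tmbim1* (0.0869), *Rbm8a* (0.0932) and *Xpnpep3* (0.0939), against a median of 0.249. These values are over 8 libraries that share the contrast, so likeness to *Negr1* includes a like difference between treatments. The 5 genes most like *Negr1* had log2 fold changes from 0.48 (*Myo16*) to 0.66 (*Xirp2*). In the order given, their spans were 856, 903, 80.6, 387 and 362 kb.

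Because shorter transcripts of a member are nested in longer ones and share an end with them, the reads of the stretch between could be obtained by subtraction. With the innermost intervals themselves this gave 20 stretches in 6 members, each with its own share of exonic bases. *Iglon5* was counted as a whole. Total RNA holds unspliced as well as spliced transcripts, and either can give reads in a stretch. Reads on exonic and on intronic bases were not separated, so the share of unspliced RNA in a stretch is not known. The stretches were chosen after the counts had been seen.

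The long, intron-rich stretches were higher with *Fezf2 shRNA*, while stretches with over 10% exonic bases in the same genes were close to the control level. Except in *Opcml*, these exon-rich stretches were 3′ ends, and all were shorter than the stretches under 2% exonic. Exonic share therefore cannot be told apart from position and length. The last 105 kb of the *Opcml* transcript used for the gene, only 1.33% exonic, had a log2 fold change of 0.22. This stretch ends at 1130 kb, short of the 3′ end of the longest form at 1135 kb. Of 12 stretches with under 2% exonic bases, 8 had all *Fezf2 shRNA* libraries above all controls, beside 7.41% of all genes tested. Log2 fold changes of the 12 ran from 0.22 to 0.68, with a median of 0.44. They include the counted intervals of *Lsamp*, *Ncam1* and *Ncam2* already given, and stretches of the same gene are not separate observations. Of 5 stretches with over 10% exonic bases, 0 were separate, with log2 fold changes from -0.15 to 0.04 and a median of -0.01. The 3 stretches between these classes (2.94% to 3.95% exonic), which are the last 2 of *Negr1* and the 5′ end of *Ntm*, had log2 fold changes from 0.25 to 0.70, and 1 of them was separate.

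*Lsamp* showed this most plainly. Its 613-kb interval, 0.544% exonic, is the value given above (log2 fold change 0.49). The 35.5 kb that follow at the 3′ end, of which 21.5% is exonic, had 6586, 7212, 5929 and 6041 normalized counts in controls and 6753, 6186, 6887 and 6278 in *Fezf2 shRNA* libraries. The groups overlapped throughout, at 182 and 184 normalized counts per kb, and the log2 fold change was 0.02 (SE 0.0753). The difference between treatments was 4744 normalized counts in the 613-kb interval and 84.0 in the exon-rich end.

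*Ntm* could be followed over 5 stretches from its 5′ end. The first 21.6 kb (3.95% exonic) had a log2 fold change of 0.37 (SE 0.146) and overlapped. The next 530 kb, the large intron of the long form with 0.14% exonic bases, had 15243, 17473, 18332 and 12038 normalized counts in controls and 27563, 24929, 24133 and 24477 in *Fezf2 shRNA* libraries. This intron carried the largest separation of the gene, with a log2 fold change of 0.68 (SE 0.143). Further on, the log2 fold change was 0.52 (SE 0.126) over 235 kb and 0.46 (SE 0.116) over 163 kb, with no overlap in either. In the last 18.5 kb, where 12.7% of bases are exonic, controls had 4833, 5237, 4348 and 4207 and *Fezf2 shRNA* libraries 4801, 5103, 4177 and 3884 normalized counts. These ranges overlapped and the log2 fold change was -0.05 (SE 0.116), at 252 normalized counts per kb in control and 243 in *Fezf2 shRNA* libraries.

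*Opcml* had the same order on its own strand. The first 239 kb of its longer form had a log2 fold change of 0.34 (SE 0.231) and overlapped, with 8937 to 16117 normalized counts in controls and 13245 to 20847 in *Fezf2 shRNA* libraries. Without *Fezf2 shRNA* replicate 1 it was 0.18. The region from 239 to 613 kb was not analysed separately. From 613 kb on, the log2 fold change was 0.52 (SE 0.12) over 246 kb and 0.42 (SE 0.116) over the next 165 kb. It was 0.22 (SE 0.069) over the last 105 kb of the transcript used for the gene. The treatments were apart in each of these stretches. A stretch of 2.80 kb at the start of this region that is 92.5% exonic had 879, 849, 971 and 769 normalized counts in controls and 880, 846, 885 and 958 in *Fezf2 shRNA* libraries. Its log2 fold change was 0.04 (SE 0.0788). Of this stretch 1.78 kb lie inside the intron-rich 246 kb, so the pair share reads, and the 246 kb had means of 13329 in control and 19126 in *Fezf2 shRNA* libraries.

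**Figure D2:**
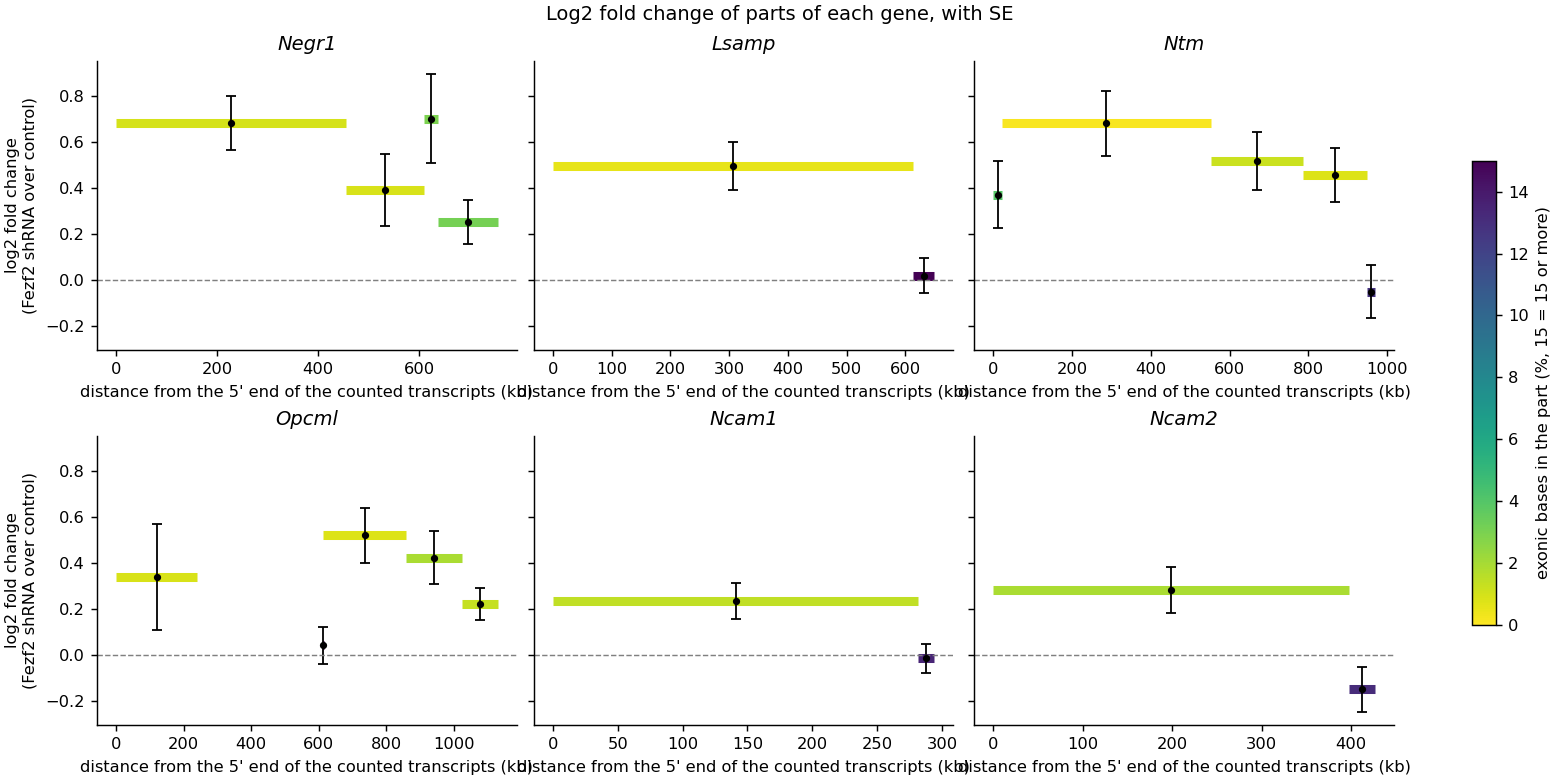
Log2 fold change (Fezf2 shRNA over control, SE as error bars) of stretches of 6 genes against distance in kb from the 5′ end of the counted transcripts, coloured by the percent of exonic bases. Pale, intron-rich stretches lie mostly between 0.22 and 0.68, and dark, exon-rich stretches between -0.15 and 0.04.

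*Negr1* has no stretch as rich in exon as the ends of *Lsamp* and *Ntm*. Its first 454 kb (0.943% exonic) had 10773, 11383, 10534 and 10551 normalized counts in controls and 16749, 14098, 20683 and 17831 in *Fezf2 shRNA* libraries. That interval held a difference of 6530 normalized counts and a log2 fold change of 0.68 (SE 0.117), with the treatments apart. The next 156 kb had 0.39 (SE 0.158) with overlap, and a further 27.4 kb (2.94% exonic) had 0.70 (SE 0.193) without overlap. The last 117 kb had 5520, 4765, 4713 and 4840 normalized counts in controls and 6344, 5112, 6454 and 5708 in *Fezf2 shRNA* libraries. It is 3.12% exonic, and its log2 fold change was 0.25 (SE 0.0942) with 1 *Fezf2 shRNA* library, replicate 2, inside the control range.

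In the NCAM genes the interval of the counted transcript and the 3′ end were also apart in level of change. The last 12.2 kb of *Ncam1* (13.4% exonic) had 2465, 2859, 2939 and 2686 normalized counts in controls and 2826, 2649, 2608 and 2756 in *Fezf2 shRNA* libraries, a log2 fold change of -0.01 (SE 0.0622) against 0.23 for the 282 kb before it. The last 29.0 kb of *Ncam2* (13.1% exonic) had 1911, 1940, 1757 and 1457 in controls and 1595, 1522, 1652 and 1604 in *Fezf2 shRNA* libraries. This log2 fold change was -0.15 (SE 0.098) against 0.28 for the 397 kb before it, and the groups overlapped because control replicate 4 was low. Without that library it was -0.23.

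Some reads counted for members may belong to genes annotated inside them. The antisense gene *Gm11149* lies in *Ncam1* and its counts equal 32.2% of those of *Ncam1*. Whether strand was used in counting is not given in the sources used here, so reads of the pair cannot be told apart. If strand was not used, the 44.6 kb that they share had a log2 fold change of 0.07 (SE 0.0356). The other 236 kb of *Ncam1*, obtained by subtracting the counts of *Gm11149*, then had 0.31 (SE 0.106). If strand was used, 0.07 is the value of *Gm11149* alone and 0.31 describes no stretch. Overlapping genes held 2.31% of the counts of *Negr1*, 1.13% of *Ntm* and 0.123% of *Ncam2*, and none was annotated within *Lsamp*, *Opcml* or *Iglon5*.

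**Figure D3:**
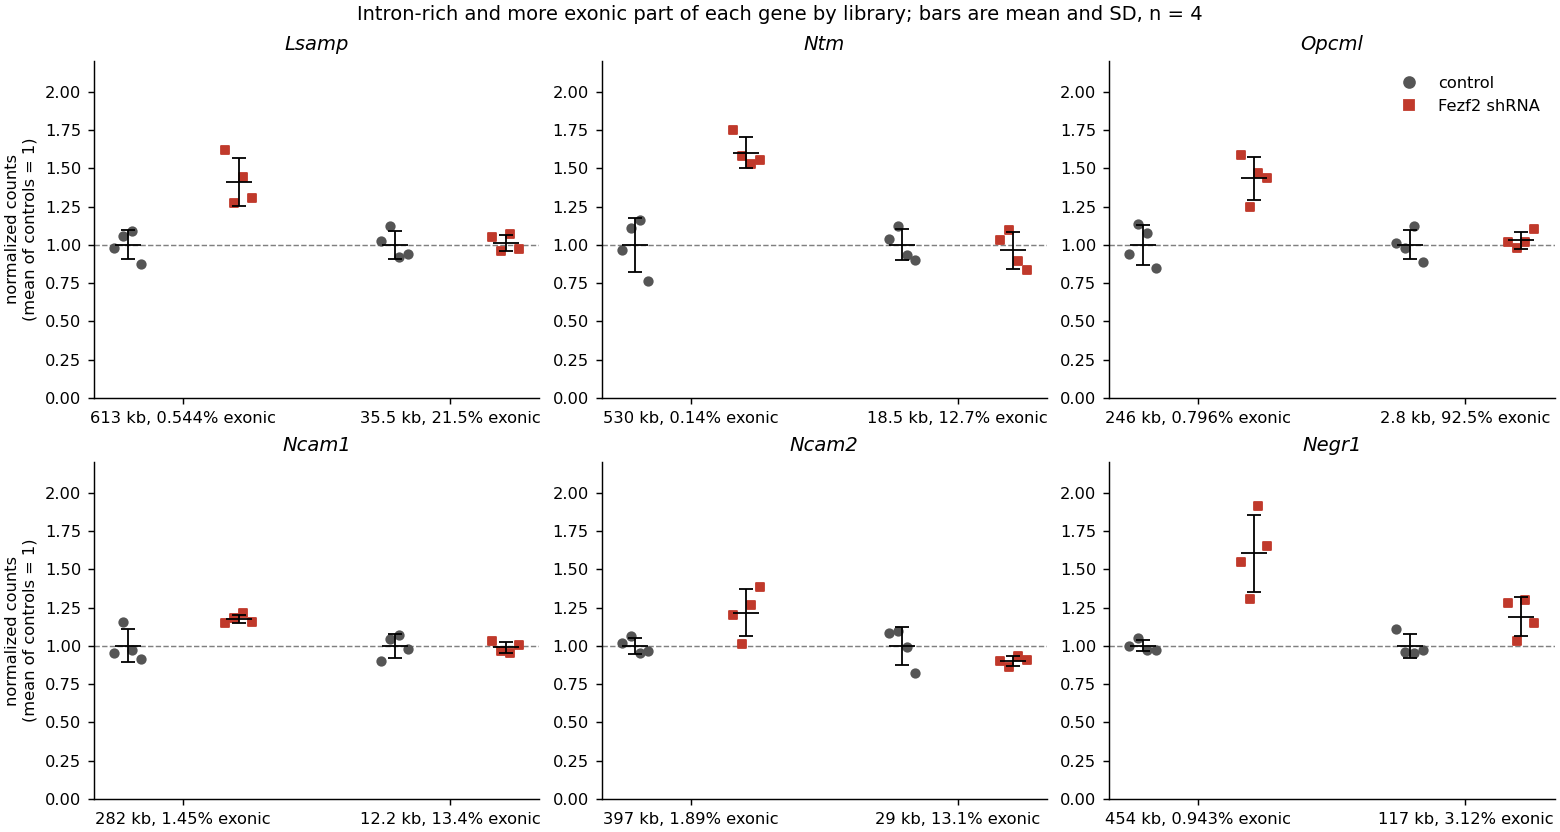
Normalized counts of an intron-rich (left) and a more exonic stretch (right) of 6 genes in each library, divided by the control mean of that stretch (axis from 0), with mean and SD as bars. For Lsamp, Ntm and Opcml the intron-rich stretch separates the treatments and the exonic one does not.

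Most members are long, and differences between treatments followed genomic span. *Negr1*, *Lsamp*, *Ntm* and *Opcml* belong to the 152 tested genes over 500 kb, which had a median log2 fold change of 0.33 and of which 28.9% were past the threshold as higher. *Ncam2* belongs to a class of 255 genes (300 to 500 kb) with a median of 0.27, *Ncam1* to 1297 genes (100 to 300 kb) with 0.15, and *Iglon5* to 2983 genes (10 to 30 kb) with -0.07. Within its class, 1.97% of genes had a larger log2 fold change than *Negr1*, 9.87% than *Ntm*, 13.2% than *Lsamp* and 17.8% than *Opcml*. For *Ncam1*, *Iglon5* and *Ncam2* these shares were 27.2%, 36.8% and 44.3%. *Negr1* was 0.30 above the median of its class, *Ntm* 0.19, *Lsamp* 0.16 and *Opcml* 0.12, while *Ncam1* was 0.09, *Iglon5* 0.03 and *Ncam2* 0.01 above theirs. The trend was seen library by library. Over 402 genes longer than 300 kb that are no members, the median log2 ratio to the control mean was between -0.13 (replicate 4) and 0.08 (replicate 2) in controls, and between 0.18 (replicate 2) and 0.36 (replicate 1) with *Fezf2 shRNA*. Whether the members differ for the same cause as other long genes was not tested.

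**Figure D4:**
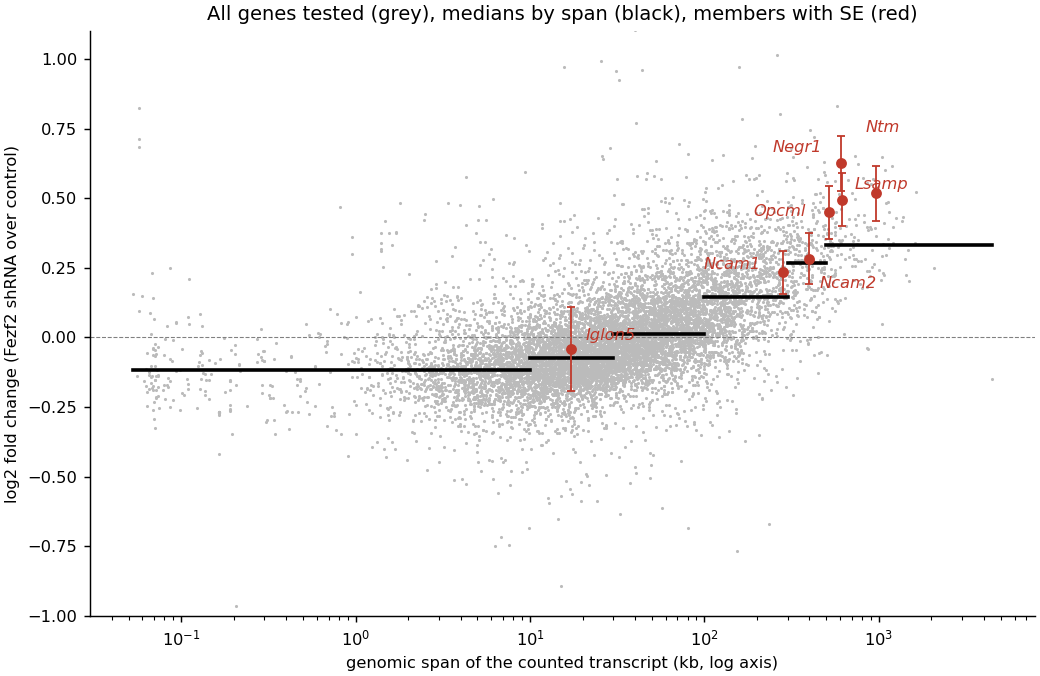
Log2 fold change of the genes tested (grey) against genomic span in kb (log axis), with the median of each span class (black lines) and the 7 genes with SE (red). The 4 long IgLONs lie above the median of 0.33 for genes over 500 kb, and Ncam2 and Iglon5 lie near the median of their class. The vertical axis leaves out 17 genes.

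When the trend with span was removed from each library by an offset, no gene was past the threshold as higher and 2 were as lower (edgeR), and 0 members were past it. The log2 fold change was then 0.30 (SE 0.0867) for *Negr1*, 0.17 (SE 0.0637) for *Lsamp*, 0.16 (SE 0.0667) for *Ntm*, 0.15 (SE 0.0633) for *Opcml*, 0.03 for *Iglon5*, and 0.01 for *Ncam1* and *Ncam2*. With the widest transcript in place of the one with the lowest Ensembl number, *Lsamp* had 0.34, *Opcml* 0.42, *Negr1* 0.54 and *Ntm* 0.52, and 2 members, *Negr1* and *Ntm*, were past the threshold. DESeq2 put 6 past it as higher, all but *Iglon5*, and did so for 6.48% of all genes tested.

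The count of members past the threshold also rested on single libraries. It was 0 if control replicate 1 or 4, or *Fezf2 shRNA* replicate 1, 3 or 4, was left out, and 3 (*Negr1*, *Lsamp* and *Ntm*) if control replicate 3 was. Leaving out control replicate 2 gave 5 by adding *Ncam1*, and leaving out *Fezf2 shRNA* replicate 2 gave 5 by adding *Ncam2*. The size of the difference moved less, between 0.56 and 0.72 for *Negr1*, 0.42 and 0.55 for *Lsamp*, 0.43 and 0.57 for *Ntm*, and 0.38 and 0.51 for *Opcml*. For the whole transcriptome the lowest count was 0, with control replicate 1 left out, and the highest 368, with control replicate 2 left out.

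**Figure D5:**
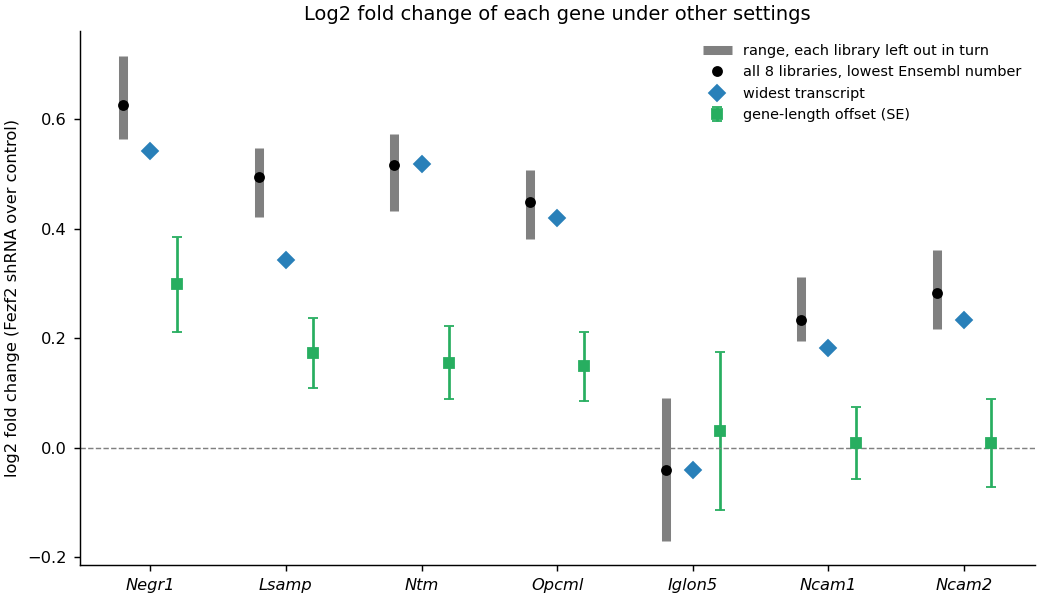
Log2 fold change of each gene (Fezf2 shRNA over control) with all 8 libraries (black), its range with each library left out (grey), with the widest transcript (blue) and with the gene-length offset (green, SE). The 4 long IgLONs stay above 0 in every setting and lie between 0.15 and 0.30 with the offset.

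Among 40 other neural adhesion genes with immunoglobulin domains, taken by family, 36 passed the filter on low counts. Of these, 3 rose (edgeR, adjusted p in brackets), 0 fell and the median log2 fold change was 0.13, with 15 at an unadjusted p under 0.05 (19.6% of all genes tested were) and 9 higher and 1 lower by DESeq2 (6.48% and 0.894% of all genes). They were the contactin *Cntn5* (0.62, SE 0.121, adjusted p = 0.0309), the nephrin-like *Kirrel3* (0.33, SE 0.0719, adjusted p = 0.0442) and the receptor phosphatase *Ptprt* (0.35, SE 0.0764, adjusted p = 0.0425). Next by p were the receptor phosphatase *Ptprm* (0.32, adjusted p = 0.0531), the contactin *Cntn3* (0.30, adjusted p = 0.0607) and basigin, *Bsg* (-0.23, adjusted p = 0.07), none of them past the threshold. Span divided the list, as it did all genes tested. All 14 genes over 300 kb had a log2 fold change above 0, from 0.10 to 0.62. Their median was 0.31 and 3 were past the threshold. Over all 407 tested genes of that length the median was 0.29 and 22.1% were past it as higher, so this class lay near that share. The 13 genes of up to 100 kb had a median of 0.02 and the 9 in between had 0.06, with 0 past the threshold in both classes. The count over the list was 5 without control replicate 2 or *Fezf2 shRNA* replicate 2, 1 without control replicate 3 and 0 without any other library.

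Of 18 genes for NCAM ligands and receptors, polysialylation and shedding, 17 passed the filter and 0 were past the threshold (edgeR), with a median log2 fold change of 0.00. At an unadjusted p under 0.05 there were 3, beside 19.6% of all genes, and DESeq2 called 1, *Fyn*, beside 6.48% of all genes called as higher. The 3 with the smallest p were the kinase *Fyn* (0.21, adjusted p = 0.097 from edgeR), which signals below *Ncam1*, and the fibroblast growth factor receptors *Fgfr3* (-0.20, adjusted p = 0.11 from edgeR) and *Fgfr1* (-0.21, adjusted p = 0.219 from edgeR), which bind it. The polysialyltransferase *St8sia4* had -0.09 and the sheddase *Adam10* 0.13, with overlapping treatments for both, and *St8sia2* was too low to be tested.

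The labelled tissue was checked with cell type markers, of which 0 were past the threshold by edgeR. Before adjustment, 2 of 10 neuron and 1 of 8 astrocyte markers had a p under 0.05 (edgeR), against 19.6% of all genes, beside those of the oligodendrocyte lineage given below. The 2 neuron markers were *Rbfox3* (418 kb, log2 fold change 0.28) and *Syt1* (513 kb, 0.19). In both, all *Fezf2 shRNA* libraries lay above all controls, as in 7.41% of all genes tested. The other neuron markers span 5.23 to 71.7 kb. All 10 neuron markers were expressed, with a summed level of 3970 to 4469 CPM in control and 4079 to 4349 CPM in *Fezf2 shRNA* libraries and a median log2 fold change of -0.02. The 8 astrocyte markers had a median of -0.09. Striatal markers were low, with *Drd2*, *Adora2a* and *Gpr6* under 1 CPM, as was the meningeal marker *Lum*. The 7 oligodendrocyte markers tested, out of 8, were all lower on average with *Fezf2 shRNA*, with log2 fold changes of -0.65 to -0.31 and a median of -0.55. Their sum was 1127 to 2041 CPM in controls and 836 to 1372 CPM in *Fezf2 shRNA* libraries, so the ranges overlapped, 5 of 7 had an unadjusted p under 0.05, and DESeq2 called 2. The 4 precursor markers tested were also all lower (-0.34 to -0.06), with 2 at an unadjusted p under 0.05 and 1 called by DESeq2. The part of this in the members' differences was not tested. Of the other lists, 7 microglial markers had a median of 0.03, 2 endothelial markers of -0.09 and 3 striatal markers of -0.02, and the 1 meningeal marker tested, *Ptgds*, had -0.13. By DESeq2, 1 neuron marker and no astrocyte, microglial, endothelial, meningeal or striatal marker was past the threshold.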

How the data were processed

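RNA-seq was performed on 8 libraries of total RNA (TruSeq), 4 per treatment, each taken as 1 animal. If they are not separate animals, the p-values measure only the spread between these samples. According to the submitters' processing notes the authors used bcl2fastq 1.8.4, TopHat2 2.1.1 (mm10), bedtools 2.26.0 and DESeq2 1.10.1 in R 3.2.5, and deposited raw read counts per Ensembl transcript. These counts cover the whole genomic interval, introns included, so that nested transcripts share reads. The authors' table of DESeq2 fold changes and p-values was not used. Of 94647 transcripts, 91320 were matched to GENCODE M21, and the rest, with 1.82% of counts, were left out.

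Counts of 1 transcript per gene were tested with the edgeR 4.0.16 quasi-likelihood test in R 4.3.3 after TMM scaling and Benjamini-Hochberg adjustment, for genes above 8 CPM in 4 or more libraries. The threshold was an adjusted p of 0.05 or less with a log2 fold change of 0.2 or more in size. The script was tested on simulated data. Depth was 54684016 to 58003814 counts per library. The SE of a gene was derived from its edgeR F statistic, and that of a stretch from the log2 normalized counts of its 4 and 4 libraries. Stretches were differences between nested transcripts that share an end within 1000 bp, at least 2000 bp long with a mean of at least 100 counts. The gene-length offset was a loess (span 0.3) fitted per library to log ratios against log span. DESeq2 1.42.0, other scalings, filters and thresholds, a replicate block, the widest transcript and each library left out were alternatives.

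The members and gene lists were chosen with earlier results of these data known. Named genes were all members, *Fezf2*, the genes past the threshold and the 3 next by p in each adhesion list, and the 5 genes most like *Negr1* and *Iglon5*. *St8sia4*, *Adam10*, *St8sia2* and the markers were named outside this rule, after their values were seen. Promoter sequences came from RefSeq (GRCm38.p6), where 6 of the 7 members had a window, and the shRNA from the study's supplementary table.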

Additional observations from a re-analysis of the deposited data

Results flagged for a closer look

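Dixon's test was applied to the 4 libraries of each treatment for the named genes and stretches. Of 68 such groups, 4 held a library far from the other 3, and chance alone flags about 1 group in 20. In the 3′ end of *Negr1*, control replicate 1 had 5520 normalized counts, against 4713 to 4840 in the other controls. In the second stretch of *Negr1*, which spans 156 kb, the same library had 3309, against 2574 to 2687. Without control replicate 1 the log2 fold changes of these stretches stayed above 0. In the last 105 kb of the *Opcml* transcript used for the gene, control replicate 4 had 3726 normalized counts, against 4214 to 4314. *Ptprt* had 8307 normalized counts in control replicate 4, against 9944 to 10072 in the other controls. This library also had the lowest median over long genes among the controls (-0.13).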

How the results depend on the processing

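With each library left out, the count of genes past the threshold ranged from 0 to 368 over all genes tested (208 with all libraries), from 0 to 5 over the members, from 0 to 5 over the other immunoglobulin adhesion genes and stayed at 0 over the NCAM partners, while *Fezf2* was between -0.31 and -0.26. A filter of more than 1 CPM left 84 genes in all, 1 member (*Negr1*) and 0 other adhesion genes, and no filter left 103, 3 and 1. DESeq2 put 734 genes past the threshold with its prior and 752 without, of which 10 were other adhesion genes and 1 was an NCAM partner in both cases, and *Fezf2* was then past it (-0.25 and -0.28, adjusted p = 0.0256 in both). The gene-length offset left 2 genes in all, 0 members and 0 other adhesion genes, with or without the replicate block, and turned *Ptprt* to -0.027 without and -0.030 with the block. The widest transcript left 2 members. Library totals as the scaling left 4 members and 2 other adhesion genes. The causes were not tested.

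The replicate number as a block left 90 genes in all, 1 member (*Negr1*) and 1 other adhesion gene. Same-numbered libraries deviated together with a correlation of 0.30, 0.09, -0.13 and 0.17 for numbers 1 to 4. Between libraries of different number it ran from -0.22 to 0.27. So few correlations cannot decide whether same-numbered libraries were paired. The labels give only a number, and the libraries were not taken as paired.

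Alternatives chosen after seeing the data, 3 other scalings and each library left out, moved no stretch by more than the spread between libraries. The intron-rich stretches stayed above 0 in all of them. The lowest value was 0.17, in the last 105 kb of the *Opcml* transcript used for the gene, without control replicate 4. By contrast, the 3′ ends of *Lsamp* (-0.02 to 0.08), *Ntm* (-0.12 to 0.01) and *Ncam1* (-0.06 to 0.02) fell on both sides of 0. So did the exonic stretch of *Opcml* (-0.01 to 0.10). The 3′ end of *Ncam2* stayed below 0 (-0.23 without control replicate 4 to -0.10 without control replicate 2). Counting depth was high for the members, and the spread between libraries limits the values.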
